A study of Mus musculus with 11 samples.

Results

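The nuclear-encoded subunits of the mitochondrial respiratory chain were followed across 3 genotypes in the trigeminal ganglion, which holds the sensory neurons of the face. The ganglia came from mice at embryonic day 13.5. Members were all probe sets with exactly 1 annotated symbol that starts with Nduf, Sdh, Uqcr, Cox4 to Cox8 or Atp5. There were 116 such probe sets of 24899 in all, for 80 of the 13674 genes named by a single symbol. Of these, 100 of 12488 probe sets were on the U74Av2 array (73 genes) and 16 of 12411 on the U74Bv2 array (16 genes). Embryos were wild-type, heterozygous or knockout for Brn3a (gene symbol Pou4f1), a POU-domain transcription factor of sensory neurons. Each array held total RNA from a pool of approximately 10 to 12 ganglia of 1 genotype. U74Av2 was run with 2 arrays per genotype, and U74Bv2 with 1 wild-type, 2 heterozygote and 2 knockout arrays. Arrays carry the replicate numbers 1 and 2 in their labels, and a pair of values for a genotype gives number 1 first. The lone wild-type array of U74Bv2 carries number 1. The sources used here do not give how the knockout allele was made, what a number marks, or whether U74Av2 and U74Bv2 shared RNA pools. P-values therefore measure the spread between these arrays, which may be technical.

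The respiratory chain sits in the inner mitochondrial membrane. Complex I takes electrons from NADH and complex II from succinate, ubiquinone carries them to complex III, cytochrome c carries them to complex IV, and complex IV passes them to oxygen. Complexes I, III and IV pump protons, and complex V, the ATP synthase, makes ATP as the protons return. Growing neurons depend on this supply for axon extension and transport. Most subunits are encoded in the nucleus, and a few, which are not among the members, in the mitochondrial genome.

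Nuclear respiratory factor 1 (NRF-1) is a transcription factor known to bind promoters of many respiratory chain genes, and GCGCATGCG is the core of its motif. RefSeq promoter windows, from 250 bases before to 50 bases after the annotated start (GRCm38.p6), were matched by symbol for 67 of the 80 genes. These letters were found on either strand in the windows of 9 of the 67 genes (13.4%), against 457 of 17492 protein-coding genes (2.61%). The 9 genes were Ndufa8, Ndufaf4, Ndufaf5, Uqcr11, Uqcrc1, Cox6a1, Atp5g2, Atp5k and Atp5l. In 6 of them the letters occur on both strands, overlapping in a palindrome. Ndufaf4 had genotype differences of opposite sign on the 2 array types. On U74Av2, Atp5g2 had both knockout arrays above all others, as did 8.53% of all tested probe sets. Uqcr11 and Uqcrc1 had both below all others there, as did 7.66% of all tested. Uqcrc1 overlapped on U74Bv2, and Cox6a1 had both knockout arrays lowest on U74Bv2 and overlapped on U74Av2. No share over all tested is given for U74Bv2. A link between the motif and genotype differences was not tested. Stretches of 100 bases from the 4 windows with the palindrome upstream of the start are shown 5′ to 3′ on the gene's strand, with the motif in capitals.
Ndufaf4, chr4:24897925-24898024, + strand: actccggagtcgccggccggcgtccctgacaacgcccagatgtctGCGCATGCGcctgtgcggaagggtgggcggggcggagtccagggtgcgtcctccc
Atp5g2, chr15:102671048-102671147, - strand: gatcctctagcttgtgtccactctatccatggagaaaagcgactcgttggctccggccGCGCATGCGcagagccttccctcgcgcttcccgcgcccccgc
Atp5k, chr5:108434400-108434499, - strand: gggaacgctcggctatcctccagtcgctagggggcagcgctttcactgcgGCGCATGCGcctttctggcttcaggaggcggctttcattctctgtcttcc
Cox6a1, chr5:115349066-115349165, - strand: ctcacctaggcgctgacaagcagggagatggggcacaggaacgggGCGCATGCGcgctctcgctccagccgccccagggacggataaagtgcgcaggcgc

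The first base of the motif lies 113 bases upstream of the annotated start in Ndufaf4, 42 in Atp5g2, 50 in Atp5k and 162 in Cox6a1. AAGATGGCG, a core of the YY1 motif, was in the windows of 7 genes (10.4%), Atp5j, Atp5j2, Ndufa9, Ndufaf8, Ndufc1, Ndufs4 and Ndufs7, against 2.14% of protein-coding genes. CCGGAAGT, an ETS-family motif, was in 4 (5.97%, against 5.69%). TCAAGGTCA, read by estrogen-related receptors, was in 1, Sdhd (1.49%, against 0.377%). ATAATTAAT, a sequence of the kind Brn3a is known to bind, was in 0 of the 67 and in 0.280% of protein-coding genes. All were searched on both strands, and 1 window, that of Uqcr11, held more than 1 of these motifs, with no overlap between them. A match is a run of letters, and binding was not measured.

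The targeted gene was tested only on U74Bv2, where the Pou4f1 signal was 3313 in wild-type, 2196 and 3570 in heterozygote and 550 and 904 in knockout arrays. Neuron markers were bright in all arrays of U74Av2, with 17183 to 35465 for Tubb3, a neuronal tubulin, and 11085 to 14718 for Stmn2, a growth cone stathmin. After probe sets at or below the 40th percentile of mean log2 signal were left out, 7453 probe sets were tested on U74Av2 and 7446 on U74Bv2. On U74Av2 the geometric mean over 3 probe sets of 18S ribosomal RNA ran from 5173 to 12803 in number 1 and from 511 to 974 in number 2, with knockout highest in each number. That over 18 spike control probe sets overlapped between the numbers, with 413 to 1398 in number 1 and 457 to 580 in number 2. Because whole ganglia were measured, fewer cells of a type and less RNA per cell cannot be told apart.

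Of the 100 members on U74Av2, 75 passed the filter and 25 did not. The 75 represent 65 genes. A further 8 genes (Atp5j2, Cox5a, Cox6a2, Cox7a1, Cox8a, Ndufa12, Ndufc2 and Ndufs4) had no probe set above the filter. Passing members numbered 29 of 38 for complex I, 4 of 4 for complex II, 7 of 7 for complex III, 12 of 23 for complex IV and 19 of 22 for complex V. The other 4 of 6 belong to assembly factors, which help to build complexes I and II without being part of them.

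None of the tested respiratory chain probe sets was called between knockout and wild-type ganglia. So few of all tested probe sets were called on U74Av2 that this does not set the members apart. In limma's fit across all probe sets of U74Av2, 0 of the 75 members were called at an adjusted p under 0.05, where 0.255% of all 7453 tested probe sets were called. At an unadjusted p under 0.05 the count was 0 members, against 5.11% of all tested. With the replicate number as a block it was again 0 called, against 1.74% of all tested, with a lowest adjusted p of 0.276 (limma). With the block 4 members had an unadjusted p under 0.05, for which no share over all tested was taken. Differences were above 0 for 41 members and below 0 for 34, and 52.6% of all tested were above 0. Their median log2 difference was 0.01, against 0.02 over all tested probe sets, and they ran from -0.38 to 0.49. The median's sign rested on single arrays: it was -0.059 without wild-type array 1, 0.0024 without wild-type array 2, 0.075 without knockout array 1 and -0.093 without knockout array 2. The typical member moved by 0.14 in either direction (median size), against 0.18 over all tested.

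The interval of each difference gives its precision 1 probe set at a time, from the spread between these arrays, which may be technical. For 64 of the 75 members the 95% interval of knockout minus wild-type lay within 1 log2 unit of 0, and for 11 it did not. That unit is a 2-fold change of the signal plus a constant, which is a larger change of the signal itself in dim probe sets. Standard errors had a median of 0.25 and ran from 0.19 to 0.59. Heterozygote against wild-type gave 0 members called (0% of all 7453 tested) and 0 at an unadjusted p under 0.05 (0.698% of all tested), with a median of 0.04, which was 0.12 without heterozygote array 1, -0.0047 without heterozygote array 2 and 0.071 without wild-type array 2. Knockout against heterozygote gave 0 called, where 0.188% of all tested were called, 0 at an unadjusted p under 0.05, against 5.25%, and a median of -0.07, against 0.02 over all tested. That median was -0.14 without heterozygote array 1 and -0.12 without knockout array 2, and turned to 0.030 without heterozygote array 2 and 0.040 without knockout array 1. With the replicate block, 0 members were called in either comparison by limma, against 0% and 1.73% of all tested. In each, 4 had an unadjusted p under 0.05 with the block (limma), again without a share over all tested. These comparisons share arrays, so their values are not independent of each other.

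**Figure D1:**
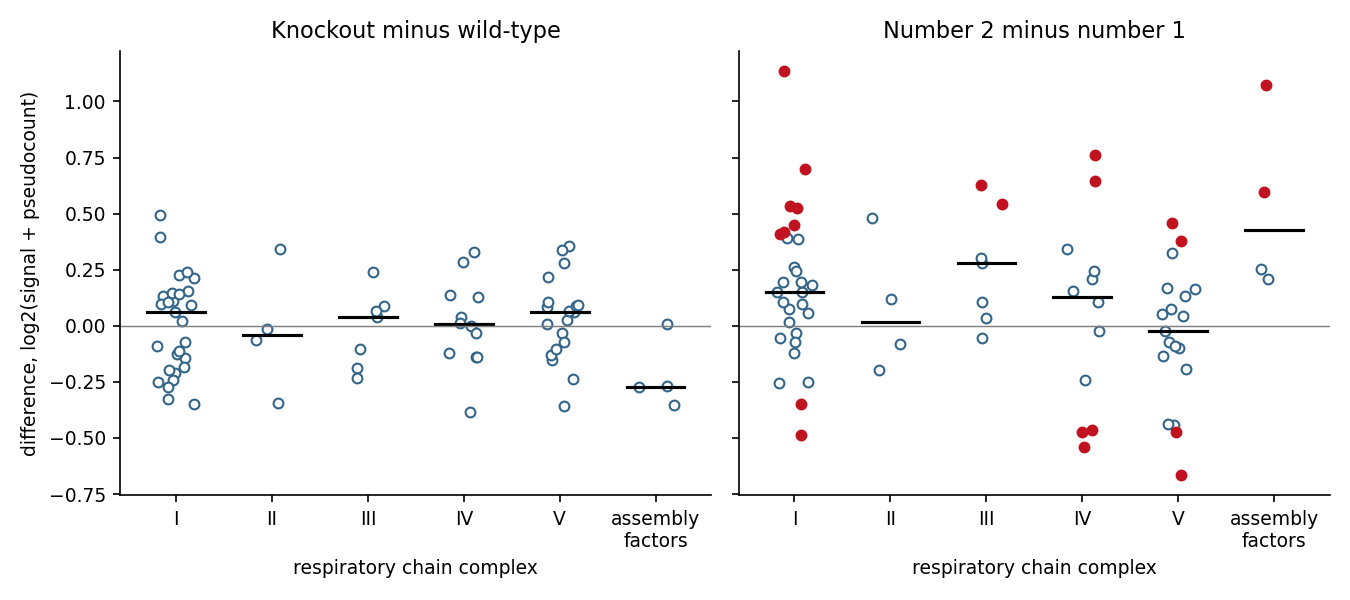
Log2 difference of each tested respiratory chain probe set on U74Av2, by complex. The left panel shows knockout minus wild-type, where 0 of 75 were called, and the right panel shows number 2 minus number 1 arrays, where 22 were called. Each circle is 1 probe set, red circles were called at an adjusted p under 0.05 by limma, and black lines are medians, which in the left panel lie between -0.27 for assembly factors and 0.06 for complexes I and V.

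More members passed the test between the 2 replicate numbers than between genotypes. With genotype in the model, 22 of the 75 members (29.3%) were called between number 2 and number 1 arrays, 15 higher and 7 lower in number 2. The background was 24.4% of all tested probe sets, 13.5% higher and 10.9% lower, so the members' share lay near it. Their median was 0.12, against 0.04 over all tested, and the range was -0.67 to 1.14. The number difference was larger in size than knockout minus wild-type in 50 members (66.7%), against 63.2% of all tested. It averages 3 arrays against 3, where a genotype comparison averages 2 against 2. Without any single array the count fell by more than 1.5 times, to 4 without wild-type array 1, 3 without wild-type array 2, 11 without either heterozygote array and 8 without either knockout array. It was 14 without the filter and 14 without an intensity trend.

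Genotype differences were also taken within each replicate number. Across the 75 members of U74Av2, knockout minus wild-type in number 1 arrays and in number 2 arrays correlated with r = 0.06, against 0.45 over all 7453 tested probe sets. For knockout minus heterozygote r was 0.23, against 0.35, and for heterozygote minus wild-type it was 9.5e-05, against 0.014. The sign of knockout minus wild-type was the same in both numbers for 43 members (57.3%), against 60.8% of all tested. The difference between numbers, measured in wild-type and again in knockout arrays, correlated with r = 0.56 across members and 0.62 across all tested. Between heterozygote and knockout arrays the same correlation was 0.70 and 0.53, and between wild-type and heterozygote arrays 0.61 and 0.57. On U74Bv2 the order was the other way across the 11 tested members, with -0.11 for the number difference in heterozygote and knockout arrays (0.10 over all tested) and 0.15 for knockout minus heterozygote in the numbers (0.33). Points of such a correlation share arrays and probe design, and genes are not replicates, so no p is given.

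**Figure D2:**
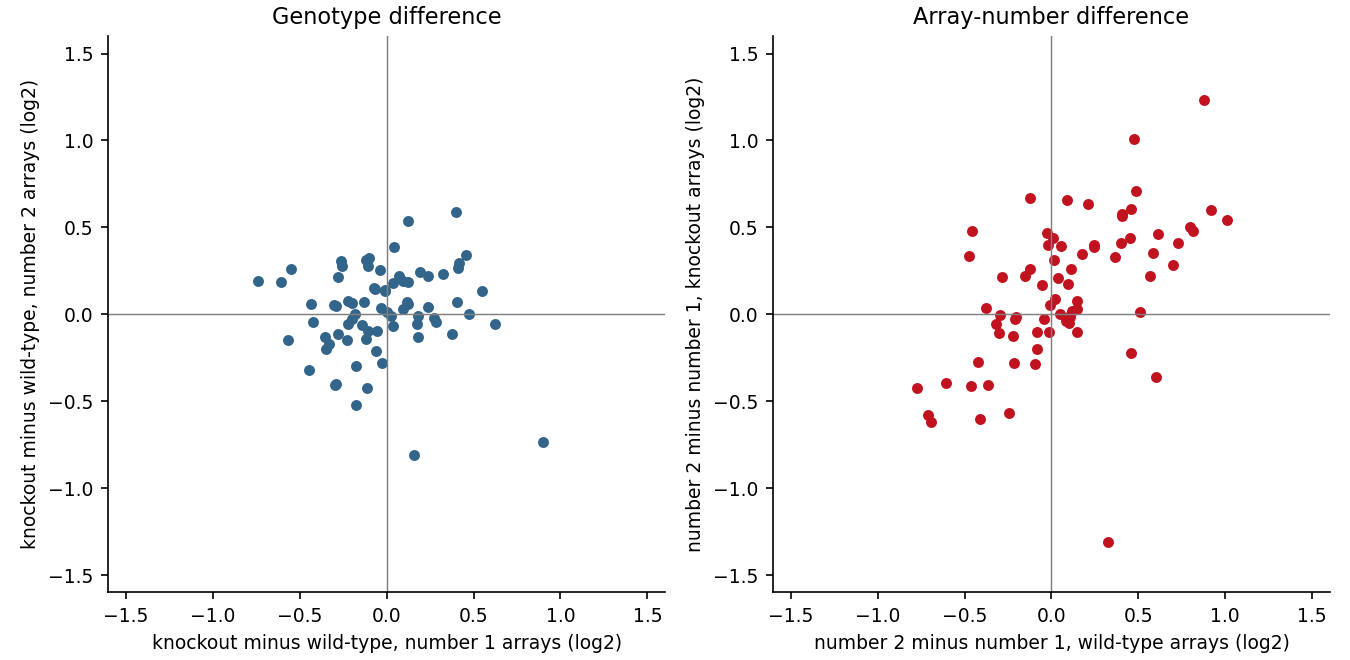
Each point is 1 of the 75 tested respiratory chain probe sets on U74Av2. The left panel sets knockout minus wild-type of the number 1 arrays (horizontal) against that of the number 2 arrays (vertical), with r = 0.06. The right panel sets number 2 minus number 1 of the wild-type arrays against that of the knockout arrays, with r = 0.56. Axes are log2 differences.

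Complex I, the NADH dehydrogenase, gave a median knockout minus wild-type difference of 0.06 over 29 probe sets, 16 above 0 and 13 below. Its 3 largest differences were in accessory subunits, which surround the catalytic core. Ndufa3 (102097_f_at) had signals of 170 and 142 in wild-type, 231 and 144 in heterozygote and 241 and 238 in knockout arrays. Both knockout arrays were above all others, by little over heterozygote array 1, and the log2 difference from wild-type was 0.49 ± 0.28 (SE, limma adjusted p = 1.00). A further Ndufa3 probe set (96915_f_at) gave 0.11 ± 0.28.

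Ndufa1, a small membrane subunit, gave 125 and 144 in wild-type, 174 and 182 in heterozygote and 190 and 195 in knockout arrays (98117_at, 0.40 ± 0.25). The knockout arrays were again highest and the wild-type arrays lowest, and the 95% interval ran from -0.19 to 0.99. Ndufb9 went the other way, with 1422 and 2127 in wild-type, 988 and 1746 in heterozygote and 1254 and 1468 in knockout arrays (100079_at, -0.35 ± 0.33). Its genotypes overlapped, and number 2 was above number 1 in each. Ndufa7 (95652_at) ranged from 5389 to 7904 over the 6 arrays with a difference of -0.14 ± 0.25.

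The largest number difference among the tested members was that of Ndufab1, the mitochondrial acyl carrier protein, which is part of complex I and also serves fatty acid synthesis. Taken as wild-type, heterozygote and knockout, its signal was 1139, 942 and 915 in number 1 and 2136, 2385 and 2219 in number 2 (96909_at). Number 2 was 2.20-fold higher (log2 1.14 ± 0.12 SE, limma adjusted p = 0.00552), with no overlap between the numbers. Knockout minus wild-type was -0.12 ± 0.57, an error set by that gap. In all 9 of 29 complex I probe sets (31.0%, against 24.4% of all tested) were called between numbers, 7 higher and 2 lower in number 2, with a median of 0.15. Ndufv2, which holds an iron-sulfur cluster near the NADH site, was among those higher (94062_at, 0.70 ± 0.13), as were Ndufs1, a core iron-sulfur subunit (0.45 ± 0.11), Ndufv3 (0.53 ± 0.11), Ndufa2 (0.42 ± 0.11) and Ndufb9 (0.53 ± 0.13). Ndufb7 was lower (-0.35 ± 0.10), as was 1 probe set of Ndufb2.

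**Figure D3:**
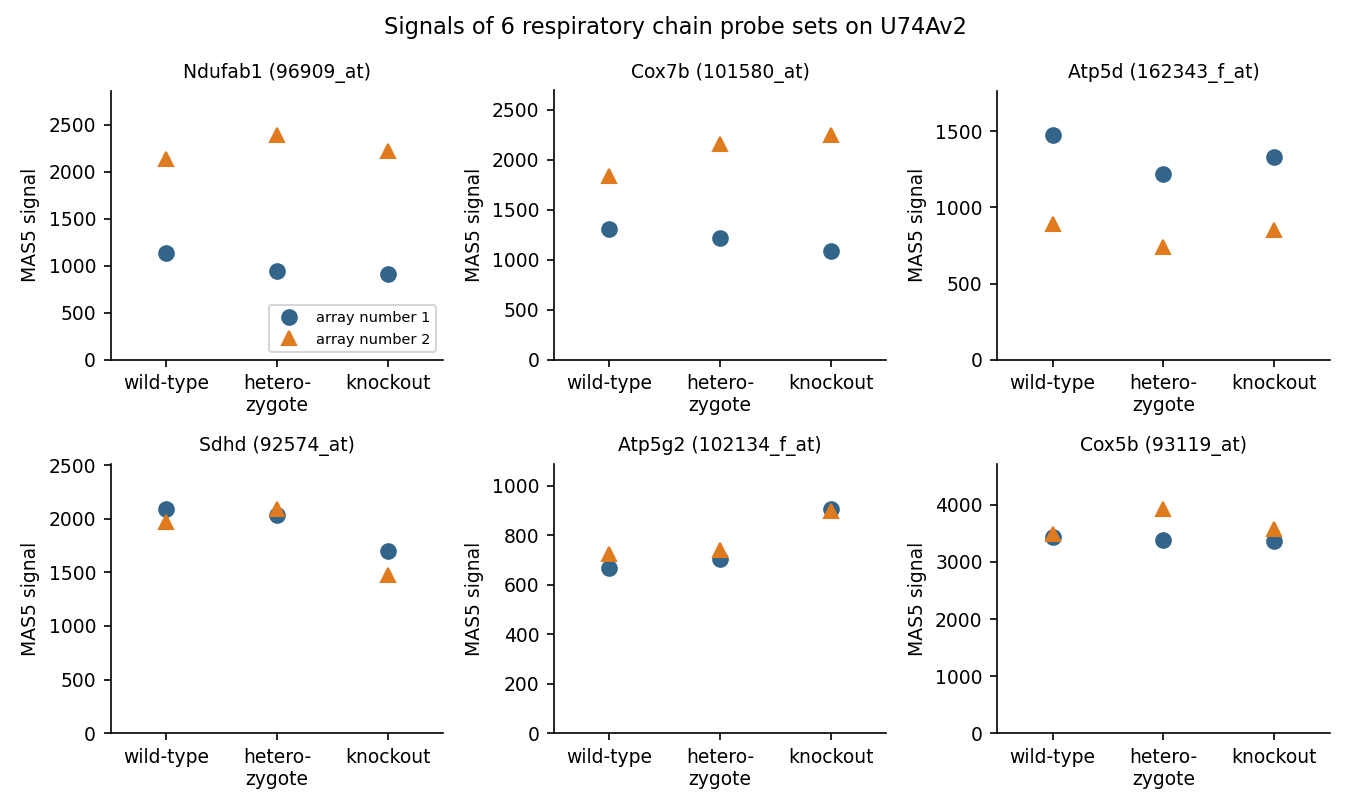
Deposited MAS5 signal of 6 respiratory chain probe sets on each U74Av2 array, by genotype. Circles are number 1 arrays and triangles number 2 arrays, with 1 array per symbol and every vertical axis from 0. In Ndufab1 and Cox7b the number 2 arrays lie above the number 1 arrays in each genotype and in Atp5d below them. In Sdhd both knockout arrays lie below all others, in Atp5g2 above all others, and Cox5b lies between 3361 and 3931 throughout.

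Complex II, succinate dehydrogenase, also works in the citric acid cycle, and all 4 of its subunits were tested. Sdhd, a membrane anchor that binds ubiquinone, had signals of 2090 and 1966 in wild-type, 2036 and 2092 in heterozygote and 1701 and 1475 in knockout arrays (92574_at). Both knockout arrays lay below all others, and the log2 difference from wild-type was -0.35 ± 0.20 (limma adjusted p = 1.00, and 0.276 with the replicate block). Sdha, the flavoprotein that oxidises succinate, gave 115 and 217 in wild-type, 139 and 210 in heterozygote and 191 and 243 in knockout arrays (94080_at, 0.34 ± 0.34), with overlap. The iron-sulfur subunit Sdhb and the anchor Sdhc differed by -0.02 ± 0.20 and -0.07 ± 0.22. None of the 4 was called between numbers, against 24.4% of all tested. At an unadjusted p under 0.05 (limma) there was 1, against 2976 of all 7453 tested. With 4 probe sets these counts do not set complex II apart.

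Complex III, the cytochrome bc1 complex, gave a median of 0.04 over 7 probe sets, 4 above 0 and 3 below. Uqcrq, a small subunit, gave 5086 and 4568 in wild-type, 4950 and 5076 in heterozygote and 3785 and 4423 in knockout arrays (93844_at, -0.23 ± 0.20). Uqcr11, another small subunit, gave 1737 and 1858, then 1953 and 2029, and 1478 and 1672 in the same order (99618_at, -0.19 ± 0.20). In both, and in the core protein Uqcrc1 (-0.10 ± 0.19), the knockout arrays lay below all others, by margins smaller than the error of the fit. Uqcrb, which helps to shape the quinone site, had 1039 and 1867 in wild-type, 1466 and 1863 in heterozygote and 1394 and 1965 in knockout arrays (95472_f_at, 0.24 ± 0.33). It was called higher in number 2 (0.54 ± 0.13), as was the core protein Uqcrc2 (0.63 ± 0.11), the only such calls among the 7 probe sets (28.6%, against 24.4% of all tested).

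Complex IV, cytochrome c oxidase, has subunits with tissue isoforms, of which Cox6a2, Cox7a1 and Cox8b are known from heart and skeletal muscle and Cox6b2 and Cox8c from testis. The muscle isoforms Cox6a2 (41 to 68) and Cox7a1 (18 to 54) were dim in all 6 arrays and were not tested, and neither was the widespread isoform Cox8a (14 to 55). No detection call was used here, so dim does not mean absent. Cox8b was tested through 1 of its 2 probe sets (160851_r_at), with 179 and 264 in wild-type, 227 and 276 in heterozygote and 303 and 253 in knockout arrays (0.28 ± 0.27). Its other probe set stayed between 20 and 48. Cox6b2 was tested through 1 of 3 (97352_f_at), with 177 and 125 in wild-type, 117 and 152 in heterozygote and 197 and 204 in knockout arrays (0.33 ± 0.28). Its knockout arrays lay above all others.

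Skeletal muscle markers, which a dissection could carry, had a summed signal over 26 probe sets of 4460 and 3667 in wild-type, 4620 and 4068 in heterozygote and 5088 and 3943 in knockout arrays, higher in number 1 in each genotype. Of the 12 tested, 0 were called by limma between knockout and wild-type, 5 lay above 0 and 7 below. Their part in the isoform signals was not tested.

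Among widespread subunits, Cox6a1 had 11448 and 9267 in wild-type, 12773 and 10245 in heterozygote and 10473 and 9717 in knockout arrays (99631_f_at, -0.03 ± 0.22). Cox5b, a zinc-binding subunit on the matrix side, differed by 0.00 ± 0.20 (93119_at, 95% interval -0.46 to 0.46). Cox7a2 differed by -0.12 ± 0.22, Cox7a2l, which takes part in supercomplex assembly, by -0.14 ± 0.22, and Cox6b1 by 0.04 ± 0.30. No probe set of Cox4i2, an isoform known from lung, was among the members. Cox4i1, the widespread isoform of subunit 4, gave 363 and 203 in wild-type, 333 and 254 in heterozygote and 253 and 152 in knockout arrays (93788_at, -0.38 ± 0.34), the lowest knockout minus wild-type difference of any tested member, with overlap. Its other probe set differed by -0.14 ± 0.30.

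Between numbers 5 of 12 complex IV probe sets were called (41.7%, against 24.4% of all tested), 2 higher and 3 lower in number 2, with a median of 0.13. Cox7b, a small subunit, gave 1309, 1216 and 1089 in number 1 and 1842, 2157 and 2246 in number 2 for wild-type, heterozygote and knockout (101580_at, 0.76 ± 0.13, limma adjusted p = 0.00975). Cox6c was also higher in number 2 (0.65 ± 0.11), without overlap in either. Lower were Cox4i1 (93788_at, -0.54 ± 0.16), Cox8c (-0.47 ± 0.10) and Cox6b1 (-0.46 ± 0.13).

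Complex V had a median genotype difference of 0.06 over 19 probe sets, 12 above 0 and 7 below. Atp5g1 and Atp5g2, with Atp5g3, encode the same mature c subunit of the rotor ring. Atp5g2 gave 668 and 723 in wild-type, 703 and 739 in heterozygote and 907 and 897 in knockout arrays (102134_f_at). The knockout arrays stood above all others, with a log2 difference from wild-type of 0.35 ± 0.20 (95% interval -0.12 to 0.83, limma adjusted p = 1.00, and 0.295 with the replicate block). A dimmer Atp5g2 probe set (92570_at, 65 to 148) was not tested and its knockout arrays, 143 and 107, overlapped the others. Atp5g1 differed by 0.06 ± 0.24 and 0.08 ± 0.43 in its 2 probe sets.

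Atp5j, coupling factor 6 of the stalk, gave 2025 and 2174 in wild-type, 2679 and 2457 in heterozygote and 2714 and 2623 in knockout arrays (98128_at, 0.34 ± 0.19). Here the wild-type arrays were lowest and heterozygote and knockout overlapped. Atp5o, the oligomycin sensitivity protein of the stalk, gave 3349 and 3304 in wild-type, 2875 and 3104 in heterozygote and 2247 and 2974 in knockout arrays (99128_at, -0.36 ± 0.22), with the wild-type arrays highest. The catalytic head subunit Atp5a1 gave 4834 and 8024, 6888 and 8143, and 5485 and 7312 in the same order (100753_at, 0.02 ± 0.30). Between numbers 4 of 19 complex V probe sets were called (21.1%, against 24.4% of all tested), and the median was -0.02, where that of all members was 0.12. The calls were Atp5a1 (0.46 ± 0.12) and 1 of Atp5c1 (0.38 ± 0.11) higher and Atp5e (-0.47 ± 0.10) and 1 of Atp5d lower.

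Over all complexes, both knockout arrays were above all other arrays in 5 of 75 members (6.67%), against 8.53% of all tested probe sets, and below in 5 (6.67%), against 7.66%. Those above were Ndufa1, Ndufa3 (102097_f_at), Cox6b2, Atp5d (94279_at) and Atp5g2. Those below were Ndufb10, Sdhd, Uqcr11, Uqcrc1 and Uqcrq. Number 2 was above number 1 without overlap in 22 members (29.3%), against 22.4% of all tested, and below in 9 (12%), against 17.7%.

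Assembly factors were measured by 4 tested probe sets on U74Av2, with a median genotype difference of -0.27. Ndufaf4, needed to build complex I, gave 213, 125 and 193 in number 1 and 445, 522 and 319 in number 2 for wild-type, heterozygote and knockout (96756_at). Number 2 was higher without overlap (1.08 ± 0.23, limma adjusted p = 0.0171), and the genotype difference was -0.27 ± 0.59. Ndufaf1 differed between genotypes by -0.35 ± 0.28, Sdhaf1 by 0.01 ± 0.24 and Sdhaf2, which helps to attach the flavin to Sdha, by -0.27 ± 0.36. Sdhaf2 was also higher in number 2 (0.60 ± 0.16).

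Probe sets of 1 gene gave unlike number differences. Of 8 genes with several tested probe sets on U74Av2, the signs of the number difference disagreed in 6 (Atp5c1, Atp5d, Atp5l, Cox4i1, Ndufa3 and Ndufb2), and those of knockout minus wild-type in 4 (Atp5c1, Atp5d, Atp5l and Ndufb2). Atp5d, the delta subunit of the stalk, had 4 tested probe sets with number differences from -0.67 to 0.07. The lowest (162343_f_at) was called, with 1473, 1217 and 1333 in number 1 and 892, 737 and 851 in number 2 (limma adjusted p = 0.00862). Cox4i1 was called lower in number 2 by 93788_at (-0.54 ± 0.16) and gave 0.34 ± 0.17 by 102124_f_at, which was not called (limma adjusted p = 0.178).

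Ndufb2 was called lower by 95132_r_at, with 5458, 4437 and 5613 in number 1 and 3175, 3684 and 4171 in number 2 (-0.49 ± 0.12), and gave 0.15 ± 0.11 by 95131_f_at. Ndufa3 was called higher by 96915_f_at (0.41 ± 0.12) and gave -0.25 ± 0.19 by 102097_f_at. Names that end in _f_at, _r_at, _s_at, _i_at or _g_at mark probe sets of relaxed design, some of which can match several transcripts. Probe sets of relaxed design made up 37 of the 100 members, of which 26 were tested and 9 called between numbers, against 13 of the 49 tested of standard design. Over all tested probe sets of any design, 24.4% were called, and no share was taken by design.

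**Figure D4:**
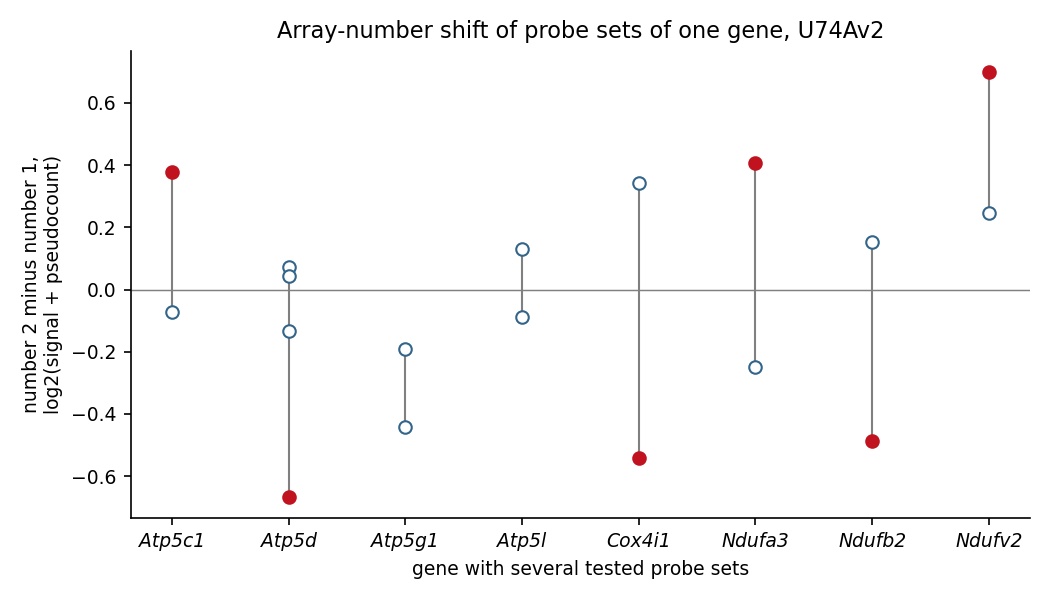
Number 2 minus number 1 log2 difference of each tested probe set for the 8 respiratory chain genes with several tested probe sets on U74Av2. Circles on 1 vertical line belong to 1 gene, and red circles were called at an adjusted p under 0.05 by limma. In 6 genes the circles lie on both sides of 0, as for Cox4i1 at -0.54 and 0.34.

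On U74Bv2, 11 of 16 members passed the filter and 0 were called between knockout and wild-type by limma, where 1.4% of all 7446 tested were called. At an unadjusted p under 0.05 there were 0 members against 11.2% of all tested, and with the replicate block 0 called, against 2.9% of all tested, and 1 at an unadjusted p under 0.05. The median was 0.09, against 0.02 over all tested, and was -0.0024 without knockout array 1 and 0.15 without knockout array 2. The comparison rests on 1 wild-type array, of number 1, whose spread was assumed from that of heterozygote and knockout arrays. Without the block, differences from wild-type on U74Bv2 therefore carry part of any number difference. Counts at an unadjusted p under 0.05 with the replicate block (limma) in this paragraph have no share over all tested beside them. Intervals lay within 1 log2 unit of 0 for 6 of the 11. Heterozygote against wild-type gave 0 called by limma (0% of all tested) and 1 at an unadjusted p under 0.05, that of Ndufaf4, against 3.8% of all tested. Knockout against heterozygote gave 0 called (1.71% of all tested) and 0 at an unadjusted p under 0.05, against 9.67%. With the replicate block 0 members were called in either, against 0.094% and 4.26% of all tested, with 1 and 0 at an unadjusted p under 0.05. Between numbers limma called 0 members, against 0.201% of all tested, and 0 had an unadjusted p under 0.05, against 9.11%, with a median of -0.10. The number difference was larger in size than knockout minus wild-type in 3 of the 11 (27.3%), against 40.8% of all tested, a lower share than on U74Av2. Here knockout minus wild-type sets 2 arrays against 1, and the lone wild-type array adds nothing to the number difference. Shares of the 2 array types are therefore not alike in precision.

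All 5 tested assembly factors on U74Bv2 lay above 0 in knockout minus wild-type, where 53% of all tested did. On U74Av2 it was 1 of 4. The 5 differences on U74Bv2 rest on the same wild-type array. There, 4 of the 5 lay above 0 in heterozygote minus wild-type and 3 in knockout minus heterozygote. Ndufaf4 gave 299 in wild-type, 540 and 466 in heterozygote and 502 and 432 in knockout arrays (109130_at, 0.57 ± 0.26, limma adjusted p = 0.479). The lone wild-type array was lowest and the other genotypes overlapped, and the sign was opposite to that on U74Av2. Sdhaf4, which protects Sdha during assembly, gave 247 in wild-type, 257 and 277 in heterozygote and 367 and 322 in knockout arrays (113222_at, 0.41 ± 0.29), with knockout above all others. Of the 11 members tested on U74Bv2, 2 (18.2%), Sdhaf4 and Sdhc, had both knockout arrays above all others. In 1 (9.09%), Cox6a1, both lay below. No share over all tested is given beside these counts. Ndufaf5 gave 212 in wild-type, 310 and 396 in heterozygote and 330 and 233 in knockout arrays (0.32 ± 0.33). Ndufaf8 and Ndufaf3 differed by 0.21 ± 0.23 and 0.09 ± 0.22.

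The 6 subunits tested on U74Bv2 had 2 differences above 0 and 4 below. Ndufs7, an iron-sulfur subunit of complex I, gave 2854 in wild-type, 3078 and 2641 in heterozygote and 3124 and 2810 in knockout arrays (0.05 ± 0.21). Cox4i1 gave 1947, then 1656 and 1556, and 1832 and 1348 in the same order (109817_f_at, -0.30 ± 0.23), below 0 as in both of its U74Av2 probe sets. Sdhb (0.00 ± 0.22), Sdhc (0.38 ± 0.32), Uqcrc1 (-0.31 ± 0.33) and Cox6a1 (-0.15 ± 0.22) completed the set. Of the 6 genes tested on both array types, Ndufaf4 and Sdhc changed sign between them.

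Other genes of mitochondrial energy supply, outside the naming rule, also had 0 calls in knockout against wild-type on U74Av2 by limma. Of 24 probe sets for other respiratory chain genes, such as cytochrome c, electron transfer flavoproteins and cytochrome oxidase assembly factors, 13 lay above 0 and 11 below (median 0.09). Between numbers 5 were called higher and 3 lower in number 2 by limma (33.3%, against 24.4% of all tested). These number differences ran from -1.25 to 1.15. Cycs, which is somatic cytochrome c, gave 268, 264 and 246 in number 1 and 762, 681 and 500 in number 2 (log2 1.15, limma adjusted p = 0.00563). Citric acid cycle and pyruvate dehydrogenase genes had 6 of 20 above 0 (median -0.08), mitochondrial carriers and import 13 of 31 (-0.04), and mitochondrial ribosomal proteins 33 of 63 (0.01). Regulators of mitochondrial biogenesis had 3 of 12 above 0 (-0.16). The 4 tested probe sets of Nrf1, the gene of NRF-1, were on U74Bv2 and differed by -0.34 to 0.16.

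Glycolysis, which feeds pyruvate to the mitochondria, had a lower median than the respiratory chain. Of 18 probe sets for 15 genes tested on U74Av2, 15 lay below 0 and 3 above in knockout minus wild-type. Their median was -0.37, and 0 were called by limma. The median was -0.32 within number 1 and -0.29 within number 2. Both knockout arrays were below all others in 10 of the 18 (55.6%), against 7.66% of all tested. Eno2, the neuronal enolase, gave 603 and 667 in wild-type, 556 and 631 in heterozygote and 357 and 410 in knockout arrays (-0.66 ± 0.21, limma adjusted p = 0.700). Of the 20 citric acid cycle and pyruvate dehydrogenase probe sets, 2 (10%) had both knockout arrays lowest and 4 (20%, against 8.53% of all tested) had both highest. The lowest were Pdha1 and Cs, which carry pyruvate carbon into the cycle (-0.46 ± 0.22 and -0.45 ± 0.20). The highest were both probe sets of Dlst (0.58 ± 0.24 and 0.70 ± 0.29), a subunit of the 2-oxoglutarate dehydrogenase complex, Suclg2 of succinyl-CoA ligase (0.58 ± 0.27) and 1 of 2 for Dlat of pyruvate dehydrogenase (0.24 ± 0.29). Of the 23 neuron marker probe sets tested on U74Av2, 8 (34.8%) had both knockout arrays lowest, and the median of the 23 was -0.06. Mesenchyme markers were above 0 in 20 of 20 (median 0.30, 0 called by limma), with summed signals of 20313 and 18012 in wild-type, 20589 and 20906 in heterozygote and 25150 and 23172 in knockout arrays. The part of these in the glycolysis values was not tested.

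**Figure D5:**
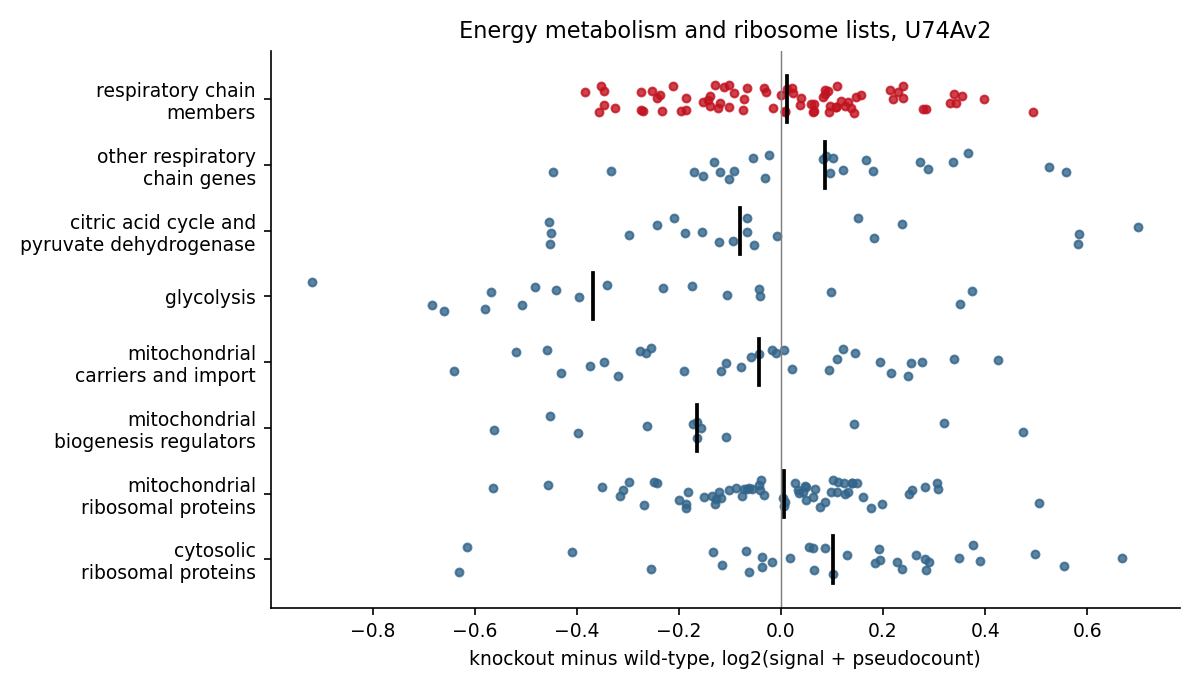
Knockout minus wild-type log2 difference on U74Av2 for the respiratory chain probe sets (red, 75 points) and for lists of other energy metabolism and ribosome genes (blue). The lists were chosen with earlier results of these data known. Each point is 1 tested probe set and black bars are medians, which lie at 0.01 for the respiratory chain and at -0.37 for glycolysis. No point shown was called by limma.

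Beside the number differences, red blood cell markers were called lower in number 2 in 5 of 10 tested probe sets (50%) and higher in 0 by limma, against 10.9% of all tested called lower and 24.4% called in all. Their summed signal over 15 probe sets was 62007 to 83961 in number 1 and 51608 to 60439 in number 2 arrays. Schwann and satellite glia markers had 6 of 10 called (60%), 5 higher and 1 lower in number 2, with a median of 0.29, and summed over 17 probe sets to 18767 to 26059 in number 1 and 20743 to 23346 in number 2. Neuron markers, with 3 called higher and 4 lower of 23, summed to 131489 to 167361 in number 1 and 127897 to 150620 in number 2. The part of 18S ribosomal RNA or of blood and glial cells in the number differences of the respiratory chain was not tested.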

How the data were processed

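Total RNA was measured on 11 Affymetrix arrays of 2 types. Per the submitters' processing notes, the authors made the deposited intensities with MAS5, which gives each probe set a linear signal. The sources used here give neither its version nor a scaling target. The 2% trimmed mean was 500.26 to 500.29 on U74Av2 and 497.61 to 498.38 on U74Bv2, so no scaling was added. The number of arrays limits the precision. Symbols came from the platform annotation. Probe sets with several symbols were not members, which left out 10 on U74Av2 and 3 on U74Bv2, among them those of Cox7c, Ndufs5, Ndufs6, Ndufb4 and Ndufa11.

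Before log2 was taken, 0.1 of the mean trimmed mean was added to each signal (50.0 on U74Av2, 49.8 on U74Bv2). Differences are on this scale, which understates changes of dim probe sets. Manufacturer's controls and probe sets at or below the 40th percentile of mean log2 signal were left out. limma 3.58.1 (R 4.3.3) with eBayes and an intensity trend was fitted to each array type with genotype as the factor, and with genotype and replicate number for the number difference. Calls needed a two-sided p, adjusted by Benjamini-Hochberg over all tested, under 0.05. All fits were tested on simulated data. Plots used matplotlib 3.10.9 under Python 3.11.15.

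The members, lists and tests were chosen with earlier results of these data known. Named were called members, per complex and array type the 3 largest knockout minus wild-type differences and the highest mean signal, the 3 largest number differences each way among those called, tissue isoforms, and genes whose probe sets differ in sign. Further called members and list genes were named after their values were seen. Alternatives were a pseudocount of 16, no filter, quantile normalization, no intensity trend, the replicate block and leaving out each array.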

Additional observations from a re-analysis of the deposited data

How the results depend on the processing

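Of 144 values under alternatives, 129 stayed within tolerance, set at 1.5 times for a count. For a median it was 1 residual SD of the array medians under the same model. This was 0.17 on U74Av2 and 0.099 on U74Bv2 for genotype differences, and 0.029 and 0.098 for number differences. The 0.17 is larger in size than each genotype median of the members on U74Av2, so staying within it shows little. Medians within tolerance still changed sign: with 1 array left out on U74Av2, knockout minus wild-type ran from -0.093 to 0.075, heterozygote minus wild-type from -0.0047 to 0.12 and knockout minus heterozygote from -0.14 to 0.040. The count of called members in the 3 genotype comparisons was 0 on both array types under every alternative run. The count called between numbers on U74Av2, 22 as reported, was 14 without the filter, 14 without an intensity trend, and 3 to 11 when 1 array was left out. The median number difference, 0.12, was 0.072 without the filter and 0.070 to 0.15 with 1 array left out. On U74Bv2 the median of knockout minus wild-type was 0.20 with the replicate block, against 0.09. The only wild-type array there is of number 1, so the value without the block carries part of the number difference. The median of knockout minus heterozygote ran from -0.089 to 0.13 with 1 array left out, against 0.00. The cause of the other changes was not tested.

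Labels do not say that the numbers pair the arrays, so the replicate block was an alternative: with it limma called 130 of all 7453 probe sets on U74Av2 in knockout against wild-type and 129 in knockout against heterozygote, and 0 members in either. On U74Bv2 the number difference could not be fitted without a heterozygote or knockout array, for want of residual degrees of freedom, and knockout against wild-type not without the only wild-type array.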
